A study of Mus musculus with 15 samples.

Results

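The miR-99/100 and miR-125 families were followed through the neural differentiation of mouse epiblast stem cells, pluripotent cells that resemble the epiblast of the embryo just before gastrulation. The 6 members are mmu-miR-99a-5p, mmu-miR-99b-5p, mmu-miR-100-5p, mmu-miR-125a-5p, mmu-miR-125a-3p and mmu-miR-125b-5p, from the 1122 mouse miRNAs that the array carries. They were chosen with earlier results of these data known, so the choice was not blind to their signal. The 5 other strands of their hairpins on the array, above background on at most 2 of the 15 arrays, are not members. All 6 members were above background on all 15 arrays and were among the 306 miRNAs tested. The cells came from Pitx3-GFP mice, in which a fluorescent reporter follows Pitx3, a transcription factor of midbrain dopaminergic neurons, and they are labelled as primary cells. The 5 groups of 3 arrays were all cells of this reporter genotype in a 14-day differentiation: day 5 cells sampled before any morphogen was given, cells given SHH and FGF8 from day 5 and sampled at day 9 (treated, day 9), cells kept without the morphogens to day 9 (control, day 9), treated cells at day 14, and control cells at day 14. No label says that the replicates came from separate cultures, so each p-value measures the spread between these arrays, which may be technical. The cultures are mixed populations with no sort on the reporter named in the labels, and in such bulk RNA fewer cells of a type and less RNA per cell cannot be told apart.

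A miRNA is cut from a hairpin precursor as a short strand that guides the silencing complex to messenger RNAs, mainly through its seed, bases 2 to 8 from the 5′ end. The miR-99/100 family is known to target components of mTOR signalling, and the miR-125 family, the vertebrate relatives of worm lin-4, to target Lin28 and to promote neuronal differentiation. In the genome, members of both families lie beside a let-7 gene in 3 clusters, and LIN28 blocks the maturation of let-7 precursors in pluripotent cells.

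The mature sequences are shown because members share seeds and differ elsewhere. They are the RefSeq mature strands of build GRCm38.p6, which held all 6 members, and capitals mark the seed.
miR-99a-5p: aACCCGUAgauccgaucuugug
miR-100-5p: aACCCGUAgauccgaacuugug
miR-99b-5p: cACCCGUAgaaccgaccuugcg
miR-125a-5p: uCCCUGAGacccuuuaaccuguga
miR-125b-5p: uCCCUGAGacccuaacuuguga
miR-125a-3p: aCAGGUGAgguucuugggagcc

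The 3 miR-99/100 strands share the seed ACCCGUA. Counted from 1 at the 5′ end, miR-100-5p differs from miR-99a-5p at 1 of 22 bases (U16A), and miR-99b-5p differs from miR-99a-5p at 4 (A1C, U11A, U16C and U21C). All of these changes lie outside the seed. miR-125a-5p and miR-125b-5p share the seed CCCUGAG and their first 13 bases, and are 24 and 22 bases long. The array also carries miR-351-5p, which has the miR-125 seed, and it was above background on none of the 15 arrays. miR-125a-3p is the other strand of the miR-125a hairpin and has an unrelated seed, CAGGUGA, which no other RefSeq mouse miRNA shared. Both strands of that hairpin were measured here, and they stand in capitals in the precursor on the plus strand of chr17:17830812-17830879.
Mir125a hairpin: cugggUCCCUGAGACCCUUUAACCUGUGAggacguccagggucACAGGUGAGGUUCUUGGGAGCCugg

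Each member has a known place in the 3 clusters, all on plus strands. On chromosome 17, Mir99b, Mirlet7e and Mir125a lie within 692 bases, inside the span of the gene Spaca6, with miR-99b-5p at chr17:17830194-17830215, miR-125a-5p at chr17:17830817-17830840 and miR-125a-3p at chr17:17830855-17830876. On chromosome 16, Mir99a, Mirlet7c-1 and Mir125b-2 lie within 47.4 kb, with miR-99a-5p at chr16:77598940-77598961 and one copy of miR-125b-5p at chr16:77646279-77646300, and no other gene of the RefSeq table spans them. On chromosome 9, Mir100, Mirlet7a-2 and Mir125b-1 lie within 50.6 kb, inside the span of the long noncoding RNA Mir100hg, with miR-100-5p at chr9:41531437-41531458 and the other copy of miR-125b-5p at chr9:41581940-41581961. The array reads the mature strand, so the chromosome 9 and chromosome 16 copies of miR-125b-5p gave 1 value.

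Signals are given as scaled log2 values, in which 0 is the 75th percentile of the probes detected on all arrays, so a member's value can be followed across groups but its level cannot be set against that of another member. That percentile ran from 149 to 337 intensity units over the arrays, 238 to 333 miRNAs were above background per array, and Pearson's r between replicates was 0.980 to 0.998 over the tested miRNAs. Slide 2 held all 6 control arrays and replicate 3 of the treated day 14 cells, and slide 1 held the other 8 arrays. The labelling control spike ran from 2.71 to 2.86 (log10) on slide 2 and from 2.97 to 3.11 on slide 1. Of the 4 pluripotency markers (miR-302a-3p, miR-302b-3p, miR-302d-3p and miR-294-3p), all 4 were above background on every day 5 array, and of the 3 neural markers (miR-124-3p, miR-9-5p and miR-9-3p), all 3 were above background on every array, day 5 included. The lists of 3 striated muscle markers and 4 endothelium and blood markers were below background on all 15 arrays.

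**Figure D1:**
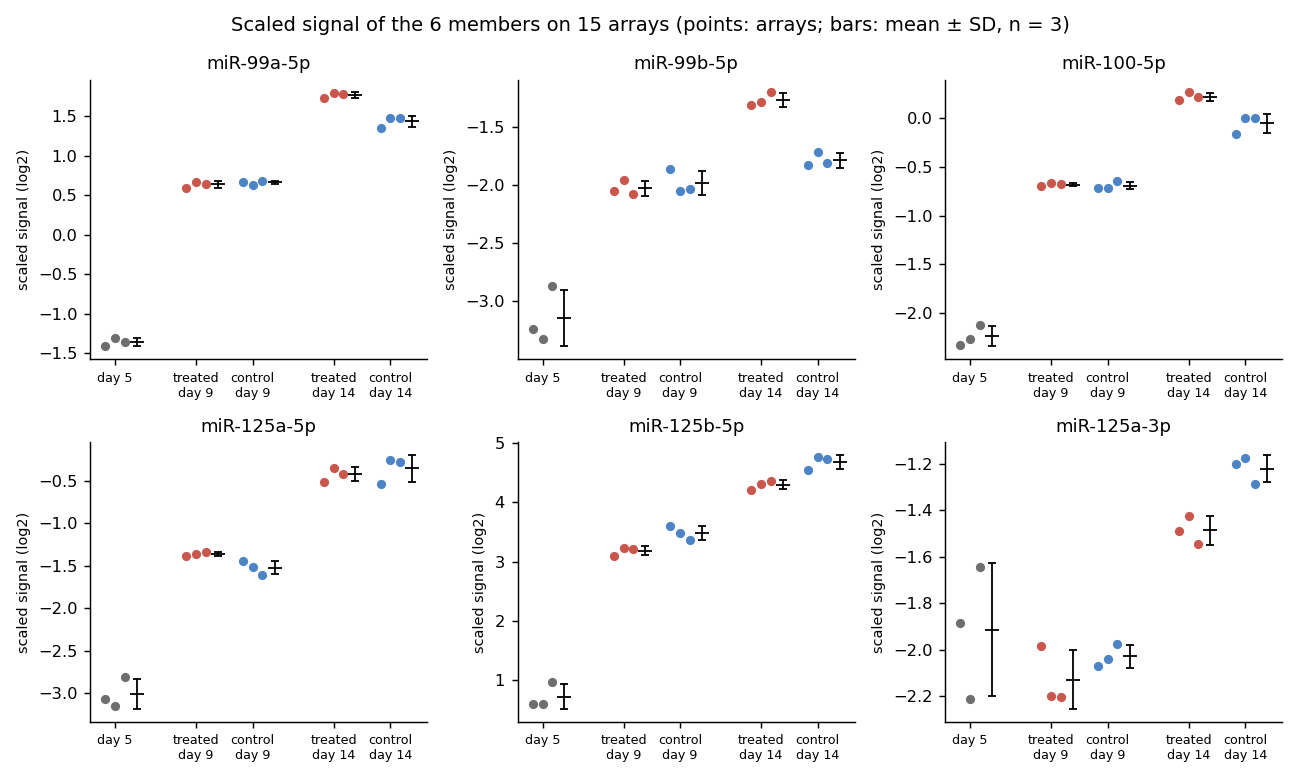
Scaled log2 signal (vertical axis) of each member on each of the 15 arrays, by group along the horizontal axis, with points for arrays and bars for the mean and SD of 3. Each panel has its own vertical range. Both miR-99/100 and miR-125 5p strands stand higher at day 9 than at day 5 and higher again at day 14, whereas miR-125a-3p lies between -2.21 and -1.64 at day 5 and -2.20 and -1.97 at day 9.

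The first question was how the families changed as the cells differentiated. The 5 5p strands rose between day 5 and day 9 with or without the morphogens, by 1.11 to 2.46 on the log2 scale in treated cells and 1.16 to 2.76 in control cells, and miR-125a-3p did not pass the test. At day 14 all 6 members were called higher than at day 9 in treated cells, by 0.64 to 1.13 (miR-125a-3p not after the normexp background correction), and 5 in control cells, by 0.64 to 1.19, with miR-99b-5p the exception. In treated cells at day 9 against day 5, limma with Benjamini-Hochberg adjustment called 58.8% of all tested miRNAs, 37.6% of them higher and 21.2% lower, and 5 of the 6 members were called higher. The groups did not overlap for 61.4% of all tested miRNAs and for 5 members. The members' median change was 1.60 there and that of all tested miRNAs 0.10. In control cells at day 9 against day 5 the test called 58.8% of all tested miRNAs, 23.9% higher and 35% lower, against 5 of 6 members higher, and the groups did not overlap for 58.2% of all tested miRNAs and for 5 members, with a median of 1.52 for the members and -0.09 for all tested.

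mmu-miR-99a-5p, the chromosome 16 member of the miR-99/100 family, read -1.42, -1.31 and -1.36 at day 5. It read 0.59, 0.67 and 0.65 in treated cells and 0.67, 0.64 and 0.68 in control cells at day 9. By day 14 the values were 1.73, 1.79 and 1.79 in treated cells and 1.36, 1.48 and 1.48 in control cells. The days did not overlap in either arm, and the arms overlapped at day 9 but not at day 14. The change at day 9 against day 5 was 2.00 in treated cells (SE 0.06) and 2.02 in control cells (SE 0.06, 4.07-fold). From day 9 to day 14 it rose by a further 1.13 in treated cells (SE 0.06, limma adjusted p = 2.2e-09) and 0.78 in control cells (SE 0.06, adjusted p = 6.42e-08).

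mmu-miR-100-5p, its chromosome 9 relative with a single base difference, read -2.32, -2.27 and -2.12 at day 5. It read -0.70, -0.67 and -0.68 in treated cells and -0.72, -0.71 and -0.65 in control cells at day 9, where the arms overlapped. At day 14 it read 0.18, 0.26 and 0.21 in treated cells and -0.16, 0.00 and 0.01 in control cells, without overlap. Its rises from day 5 to day 9 were 1.56 in treated cells and 1.55 in control cells, and its rises from day 9 to day 14 were 0.90 in treated cells and 0.64 in control cells (SE 0.07 for each). After normexp the rise by day 9 was 0.83 in both arms, still called.

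mmu-miR-99b-5p, the chromosome 17 member, read -3.23, -3.33 and -2.86 at day 5. It read -2.05, -1.96 and -2.08 in treated cells and -1.86, -2.05 and -2.04 in control cells at day 9. Its day 14 values were -1.32, -1.29 and -1.20 in treated cells and -1.83, -1.71 and -1.81 in control cells. The first interval brought a rise in both arms, 1.11 in treated cells and 1.16 in control cells (SE 0.10), which after the normexp background correction were 0.34 (limma adjusted p = 0.0672) and 0.36 (adjusted p = 0.0555), and with a floor on low signals 4 times higher 0.24 and 0.29, both called. In the second interval miR-99b-5p rose by 0.76 in treated cells (SE 0.10, limma adjusted p = 1.9e-05, and 0.38 after normexp), and its change in control cells was 0.20 (SE 0.10, adjusted p = 0.127). That control change had no settled sign, since it was -0.16 under quantile normalization.

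mmu-miR-125b-5p, the member encoded on chromosomes 9 and 16, read 0.60 to 0.97 at day 5. It read 3.10, 3.24 and 3.21 in treated cells and 3.61, 3.48 and 3.36 in control cells at day 9. By day 14 the signal was 4.20, 4.31 and 4.35 in treated cells and 4.53, 4.76 and 4.73 in control cells. Treated arrays stood below every control array at both days. The rise from day 5 to day 9 was 2.46 in treated cells (SE 0.10, 5.49-fold) and 2.76 in control cells (SE 0.10, 6.75-fold), which ranked 7 and 4 among the 306 changes ordered from the highest. The rise from day 9 to day 14 was 1.11 in treated cells and 1.19 in control cells (SE 0.10 for each), and under quantile normalization it was 0.57 in treated cells and 0.72 in control cells, still called.

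mmu-miR-125a-5p, its chromosome 17 relative, read -3.07, -3.15 and -2.81 at day 5. It read -1.39, -1.37 and -1.34 in treated cells and -1.45, -1.52 and -1.60 in control cells at day 9, where treated arrays were higher without overlap. At day 14 it read -0.51, -0.35 and -0.42 in treated cells and -0.54, -0.25 and -0.28 in control cells, with overlap. It rose by 1.65 in treated cells and 1.49 in control cells from day 5 to day 9, and by 0.94 in treated cells and 1.17 in control cells from day 9 to day 14 (SE 0.10 for each). The rise by day 9 was 0.67 in treated and 0.57 in control cells after normexp, and 0.90 in treated and 0.75 in control cells with a floor on low signals 4 times higher, and all 4 values were called. The later rise in treated cells was 0.62 after normexp.

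mmu-miR-125a-3p, cut from the same hairpin as miR-125a-5p, did not follow it. It read -1.89, -2.21 and -1.64 at day 5, and its 3 treated and 3 control arrays at day 9 lay within that range, between -2.20 and -1.97. The change at day 9 against day 5 was -0.21 in treated cells (SE 0.12, limma adjusted p = 0.131) and -0.11 in control cells (SE 0.12, adjusted p = 0.456). The treated change passed as a fall under the other 3 scalings tried (the percentile over all mouse probes, median scaling and quantile normalization), by 0.33 to 0.44 (changes of -0.33, -0.42 and -0.44), and the control change ran from -0.11 to 0.26. The treated change also passed as a fall with the scanner software's total gene signal (-0.34, limma adjusted p = 0.0137). As scaled here, the call also depended on day 5 replicate 2. Without that array the treated change was -0.36 (adjusted p = 0.0041) and the control change -0.26 (adjusted p = 0.0251). At day 14 it read -1.49, -1.42 and -1.55 in treated cells and -1.20, -1.17 and -1.29 in control cells, above day 9 in both arms. That rise was 0.64 in treated cells (adjusted p = 0.000215) and 0.81 in control cells (adjusted p = 3.66e-05), and after normexp it was 0.28 (adjusted p = 0.0866) in treated and 0.46 in control cells. Under quantile normalization it was 0.50 in treated and 0.39 in control cells. All 4 of its probes gave the same direction in each of these 4 comparisons. The opposite strands of the other members gave no such series: miR-99a-3p, miR-100-3p, miR-125b-1-3p and miR-125b-2-3p were above background on 0 of 15 arrays and miR-99b-3p on 2.

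From day 9 to day 14, the test called 66.3% of all tested miRNAs in treated cells (35.6% higher, 30.7% lower) and 54.2% in control cells (31.4% higher, 22.9% lower). The groups did not overlap for 75.2% of all tested miRNAs in treated cells and 58.2% in control cells, and for all 6 members in both. The members' median change was 0.92 in treated cells and 0.79 in control cells, against 0.01 and 0.06 for all tested miRNAs in those arms. The comparison of treated day 9 with day 5 lies wholly on slide 1 and that of control day 14 with control day 9 wholly on slide 2. Within slide 1, treated day 14 against treated day 9 kept all 6 calls, with changes of 0.67 to 1.12. No slide holds both control day 9 and day 5 arrays, and with slide as a term in the fit the same 5 members were called there, with changes of 1.06 to 2.66. That fit called 99 of all 306 miRNAs there, against 180 without the term. Only the treated day 14 group lies on both slides, with 1 array on slide 2, so the slide term rests on that group. The 2 arms share the day 5 arrays. Markers moved over the same interval: all 3 neural markers rose and all 4 pluripotency markers fell from day 5 to day 9 in both arms (2 of the 3 neural markers in treated cells under 2 of the 4 scalings), and their part in the members' changes was not tested. The summed scaled signal of the neural list was 7.52 to 7.82 in treated day 9 arrays and 13.4 to 14.97 in control day 9 arrays, against 3.80 to 4.07 at day 5, and that of the pluripotency list was 0.381 to 0.410 in treated and 0.303 to 0.364 in control day 9 arrays, against 1.45 to 2.11 at day 5.

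**Figure D2:**
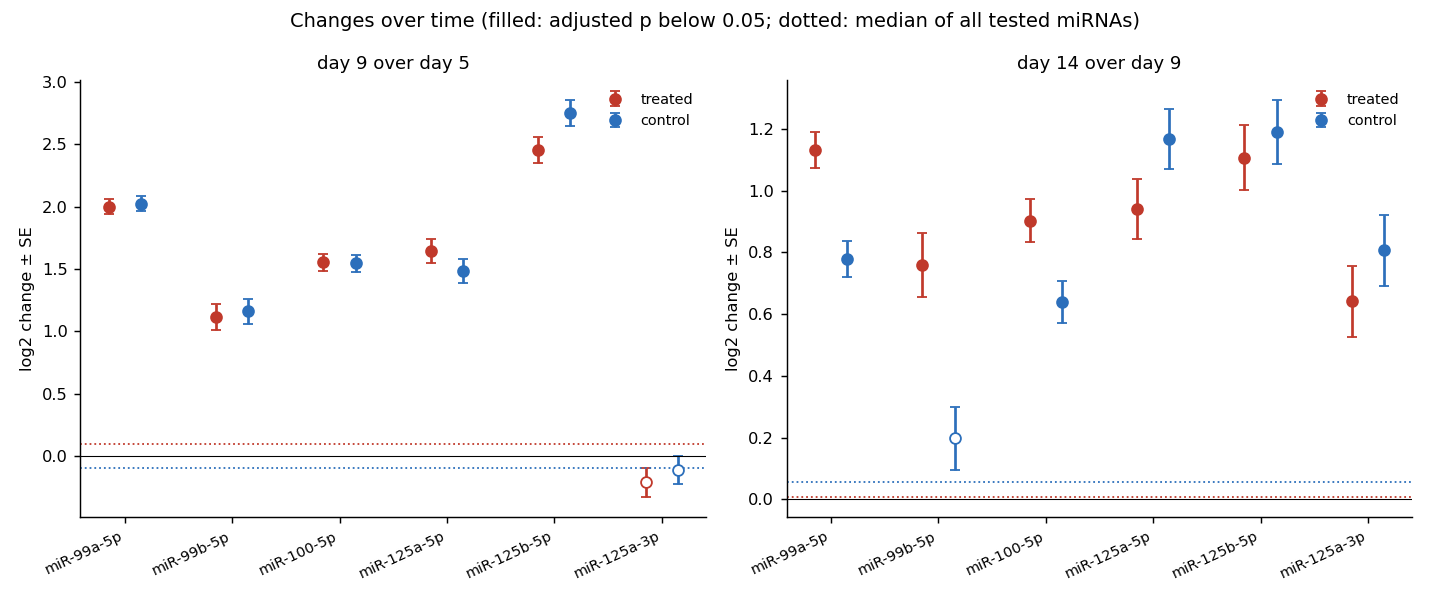
Change of each member (log2, with limma's SE) from day 5 to day 9 and from day 9 to day 14, in treated and control cells. Filled points passed the test at an adjusted p below 0.05, open points did not, and dotted lines give the median of the 306 tested miRNAs. As scaled here, the 3 miR-99/100 strands have nearly equal rises in the arms in the first interval and larger rises in treated cells in the second.

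The second question was whether SHH and FGF8 altered the families. At day 9 miR-125b-5p was lower in treated cells by 0.30 on the log2 scale (change -0.30), and no other member passed the test as scaled here, but all 6 were called lower with the percentile over all mouse probes (changes of -0.89 to -0.43) and 5 with median scaling. Calls of lower signal among all 306 miRNAs also rose, from 46 as scaled here to 121 with that percentile and 85 with median scaling. At day 14 the 3 miR-99/100 strands were called higher in treated cells, by 0.27 to 0.52, and miR-125b-5p lower by 0.38 (change -0.38), while miR-125a-5p and miR-125a-3p did not pass as scaled here. The direction held for miR-99b-5p and miR-125b-5p under every alternative run, whereas miR-99a-5p turned to -0.04 with the percentile over all mouse probes and miR-100-5p was called lower with the mean of its probes (-0.15, limma adjusted p = 0.0197). At day 9 the test called 55.6% of all tested miRNAs (40.5% higher, 15% lower), against 1 of 6 members, which was lower. The groups did not overlap for 71.2% of all tested miRNAs and for 2 of the members. At day 14 it called 53.9% (39.2% higher, 14.7% lower), against 4 of 6 members, 3 higher and 1 lower, and the groups did not overlap for 55.9% of all tested miRNAs and for 5 members. The share of members called at day 9 was below, and that at day 14 not far above, the share of all tested miRNAs.

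For miR-99b-5p the treated over control change was -0.05 at day 9 (SE 0.10, limma adjusted p over 306 miRNAs = 0.767) and 0.52 at day 14 (SE 0.10, adjusted p = 0.000878), a 1.43-fold higher signal in treated cells. The change of miR-99a-5p was -0.02 at day 9 and 0.33 at day 14 (SE 0.06, limma adjusted p = 0.000357), or 1.26-fold. For miR-100-5p it was 0.01 at day 9 and 0.27 at day 14 (SE 0.07, limma adjusted p = 0.00428), or 1.21-fold. The difference between the day 14 and the day 9 effect, tested itself as the interaction of treatment and day, was 0.56 for miR-99b-5p (SE 0.15, adjusted p = 0.00945) and 0.35 for miR-99a-5p (SE 0.08, adjusted p = 0.00564). It was 0.26 for miR-100-5p (SE 0.10, limma adjusted p = 0.0527), which did not pass. That interaction test called 32.7% of all tested miRNAs, 16.7% positive and 16% negative, against 2 of 6 members, both positive.

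Of the 3 miR-125 strands 1 passed as scaled here. miR-125b-5p in treated cells was 0.30 below control at day 9 (change -0.30, SE 0.10, limma adjusted p = 0.0259) and 0.38 below it at day 14 (change -0.38, SE 0.10, adjusted p = 0.00712), a fold of 0.767. The day 9 call was lost with quantile normalization, the mean of the probes, a floor on low signals 4 times higher or no filter on dim miRNAs, and when any of 4 arrays was left out: treated replicates 1 and 3 (adjusted p = 0.0924 and 0.0502) and control replicates 1 and 2 (adjusted p = 0.107 and 0.057). The interaction for miR-125b-5p was -0.08 (SE 0.15, adjusted p = 0.738). miR-125a-5p changed by 0.16 at day 9 and -0.07 at day 14 (SE 0.10, limma adjusted p = 0.602 at day 14), and miR-125a-3p by -0.10 at day 9 and -0.26 at day 14 (SE 0.12, adjusted p = 0.0704 at day 14). miR-125a-5p was called lower in treated cells at day 14 with the percentile over all mouse probes (-0.44, adjusted p = 0.017) and median scaling (-0.27, adjusted p = 0.0147). At day 9 it was called lower with that percentile (-0.43) but higher with the mean of its probes (0.28, adjusted p = 0.03465). miR-125a-3p was called lower in treated cells at day 14 under 5 alternatives: with the percentile over all mouse probes (-0.64), the total gene signal (-0.58), median scaling (-0.47), quantile normalization (-0.43) and the mean of its probes (-0.35).

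**Figure D3:**
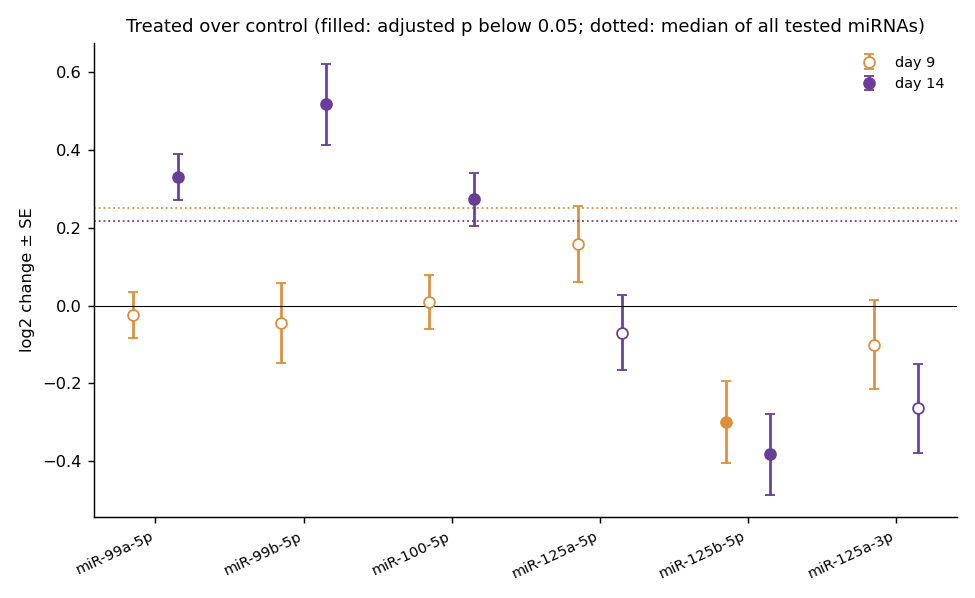
Treated over control change of each member (log2, with limma's SE) at day 9 and day 14. Filled points passed the test, and dotted lines give the median of the 306 tested miRNAs, 0.25 at day 9 and 0.22 at day 14. As scaled here, the miR-99/100 strands lie near 0 at day 9 and at 0.27 to 0.52 at day 14 (miR-99a-5p and miR-100-5p are below 0 with the percentile over all mouse probes), and miR-125b-5p lies below 0 at both days.

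The sizes of these effects depend on how arrays were brought to a common scale, because the median of all 306 miRNAs was itself 0.25 higher in treated cells at day 9 and 0.22 higher at day 14. Under 4 scalings (the one used, the percentile over all mouse probes, median scaling and quantile normalization) that median ran from -0.25 to 0.25 at day 9 and from -0.08 to 0.22 at day 14. Relative to it, 5 members lay lower in treated cells at day 9 under all 4 scalings, among them miR-125b-5p (-0.64 to -0.26), miR-125a-3p (-0.55 to -0.35) and miR-99b-5p (-0.42 to -0.30), whereas miR-99a-5p ran from -0.37 to 0.05. At day 14, miR-99b-5p stood 0.22 to 0.31 higher in treated cells and miR-99a-5p 0.03 to 0.27 higher, whereas miR-100-5p ran from -0.02 to 0.27. miR-125b-5p stood between -0.68 and -0.40, miR-125a-3p between -0.56 and -0.43 and miR-125a-5p between -0.37 and -0.13. As scaled, without that reference, the day 14 changes of miR-99a-5p and miR-100-5p turned negative with the percentile taken over all mouse probes (-0.04 and -0.10). The day 14 call of miR-99b-5p was lost with that percentile (0.14, limma adjusted p = 0.557), after the normexp background correction (0.28, adjusted p = 0.186) and with the scanner software's total gene signal (0.30, adjusted p = 0.0585). That of miR-99a-5p was also lost with median scaling (0.13, adjusted p = 0.214) and the total gene signal (0.16, adjusted p = 0.093), that of miR-100-5p with median scaling (0.07, adjusted p = 0.478) and normexp (0.23, adjusted p = 0.135), and that of miR-125b-5p with quantile normalization (-0.40, adjusted p = 0.086). The interaction relative to the median of all miRNAs kept 1 sign under the 4 scalings for each miR-99/100 strand: 0.63 to 0.71 for miR-99b-5p, 0.22 to 0.45 for miR-99a-5p and 0.34 to 0.36 for miR-100-5p. All of these scalings but quantile normalization apply a common factor to each array, which subtracting that median removes except at the floor. Values relative to the median are therefore alike under them largely by arithmetic.

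**Figure D4:**
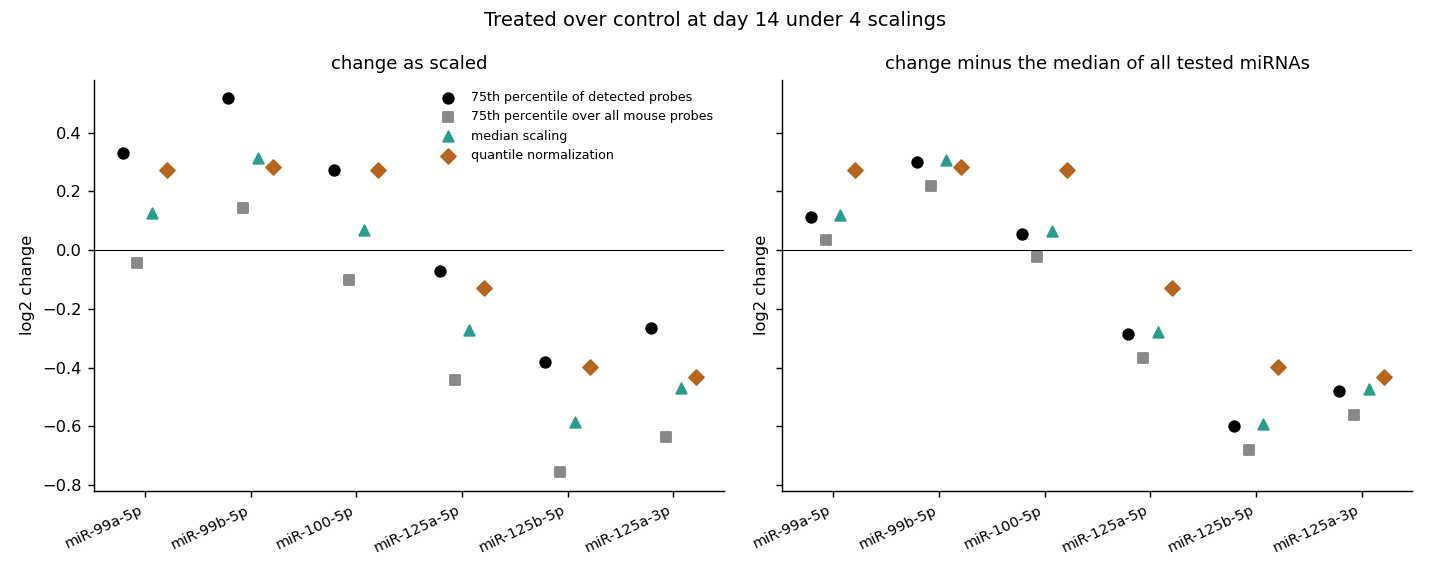
Treated over control change at day 14 (log2) for each member under 4 scalings, as scaled (left) and after the median of all tested miRNAs under that scaling was subtracted (right). Relative to the median, miR-99b-5p and miR-99a-5p are above 0 and the 3 miR-125 strands below 0 in all 4, while miR-100-5p runs from -0.02 to 0.27. The scalings other than quantile normalization differ by a factor per array, which the subtraction removes except at the floor.

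Slide and probe also bear on these values. No slide holds treated and control arrays of day 9, so slide and treatment cannot be told apart there except through the day 14 arrays. With slide as a term in the fit, the day 9 change of miR-125b-5p was -0.21 (limma adjusted p = 0.525). At day 14, the same term left miR-99a-5p at 0.35 (adjusted p = 0.00609) and miR-99b-5p at 0.58 (adjusted p = 0.00935), while miR-100-5p at 0.27 (adjusted p = 0.0518) and miR-125b-5p at -0.32 (adjusted p = 0.123) no longer passed. These block values equal those within slide 2, where 1 treated and 3 control day 14 arrays lie and the lone array is assumed to vary like the others, so both rest on that treated array. Within slide 2 alone the changes were 0.35 for miR-99a-5p (adjusted p = 0.0119), 0.58 for miR-99b-5p (adjusted p = 0.011) and -0.32 for miR-125a-3p (adjusted p = 0.0155). Both probes of miR-99a-5p and of miR-99b-5p were higher in treated cells at day 14. For miR-125b-5p the brighter probe gave -0.30 at day 9 and -0.38 at day 14. Its other probe, above background on all 15 arrays, gave -0.01 and -0.26. For miR-125a-5p the brighter probe gave -0.07 at day 14 and the other, above background on 13 arrays, 0.14. The probes of miR-100-5p disagreed most: the brighter gave 0.27 at day 14 and the other, above background on 12 arrays, -0.58 at day 14 and -0.51 at day 9. With the mean of the probes the day 14 change of miR-100-5p was -0.15 (adjusted p = 0.0197), so its direction in treated cells was not settled.

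Differences between members on the same array do not depend on such a scaling factor, and 6 pairs were compared in 6 comparisons each. An exact two-sided permutation test of 3 arrays against 3 cannot go below p = 0.1, and after adjustment over the 36 tests no p was below 0.12. In 30 of the 36 the groups did not overlap. That share was not computed for pairs of other miRNAs, so the count is not a result about these pairs. For single miRNAs the groups did not overlap for 55.9% to 75.2% of all tested in these comparisons. The pair miR-125b-5p minus miR-99a-5p joins the family members with genes on chromosome 16. That difference was 2.47, 2.52 and 2.57 in treated cells and 3.18, 3.28 and 3.24 in control cells at day 14, a gap of -0.71 without overlap (exact permutation p = 0.1). At day 9 it was 2.51, 2.56 and 2.57 in treated cells and 2.93, 2.85 and 2.69 in control cells, a gap of -0.27 without overlap. From day 9 to day 14 it changed by -0.03 in treated cells, with overlap, and by 0.41 in control cells, without overlap.

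On chromosome 17, Mir99b and Mir125a lie within 692 bases. miR-99b-5p minus miR-125a-5p was -0.80, -0.94 and -0.79 in treated cells and -1.29, -1.46 and -1.53 in control cells at day 14, a gap of 0.59 without overlap. At day 9 it was -0.67, -0.59 and -0.74 in treated cells and -0.41, -0.53 and -0.43 in control cells, a gap of -0.20 in the other direction, also without overlap. In control cells the difference moved by -0.97 from day 9 to day 14, and in treated cells by -0.18. Within the miR-125 family, miR-125a-5p minus miR-125b-5p was higher in treated than in control cells by 0.46 at day 9 and 0.31 at day 14, and it fell against day 5 by 0.81 in treated and 1.27 in control cells at day 9. Within the miR-99/100 family, the difference between the near-identical miR-100-5p and miR-99a-5p changed by 0.03 with treatment at day 9, with overlap, and by -0.06 at day 14, without overlap. With the mean of the probes those changes were -0.29 at day 9 and -0.58 at day 14. For miR-99b-5p minus miR-99a-5p the changes were -0.02 at day 9, with overlap, and 0.19 at day 14, without overlap (-0.046 after normexp). Between day 5 and day 9, miR-100-5p minus miR-99a-5p moved by -0.44 in treated and -0.48 in control cells.

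**Figure D5:**
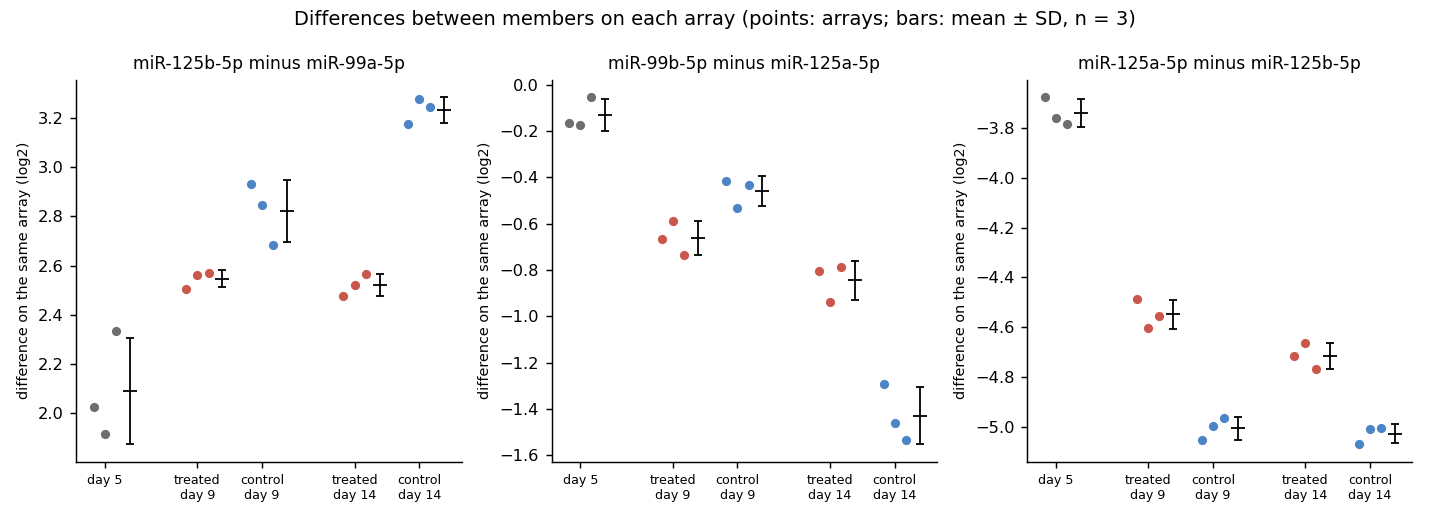
Difference between paired members on each array (log2, vertical axis) by group, with points for arrays and bars for the mean and SD of 3. In miR-125b-5p minus miR-99a-5p, the treated arrays of day 9 and day 14 lie together between 2.47 and 2.57 while the control arrays of day 14 lie at 3.18 to 3.28. In miR-99b-5p minus miR-125a-5p the order of the arms is opposite at day 9 and day 14.

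The let-7 strands of the same clusters were also followed. All 3 tested (let-7a-5p, let-7c-5p and let-7e-5p) were lower in treated cells at day 9, by 0.88 (change -0.88), 1.08 (change -1.08) and 0.64 (change -0.64), and 1 was lower at day 14, let-7c-5p with a change of -0.27 (limma adjusted p = 0.048), a call lost under quantile normalization. Over the 9 let-7 family strands on the array, 8 were lower in treated cells at day 9 and 5 at day 14, with medians of -0.64 and -0.27. The day 9 counts of both lists were the same under all 4 scalings, and the 9 strands gave 5 to 7 lower at day 14. let-7a-5p and let-7c-5p also come from genes outside the 3 clusters, whereas let-7e-5p lies only between Mir99b and Mir125a in the RefSeq table. On the same array, let-7e-5p minus miR-125a-5p was lower in treated than in control cells by 0.79 at day 9 (change -0.79) and higher by 0.15 at day 14, without overlap at either day (exact permutation p = 0.1, adjusted p = 0.12). let-7e-5p was below background on all 3 day 5 arrays and above it on the other 12, so no fold against day 5 is given.

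Markers of other cell types moved with treatment as well. All 3 neural markers were lower in treated cells at both days (2 of 3 at day 14 under quantile normalization), miR-124-3p by 0.97 at day 9 (change -0.97) and by 1.04 at day 14 (change -1.04). The neural list summed to 7.52 to 7.82 in treated and 13.4 to 14.97 in control day 9 arrays, and to 14.5 to 17.01 in treated and 23.3 to 27.6 in control day 14 arrays. Of 5 mesenchyme markers 2 were tested and both were higher in treated cells at both days, miR-21-5p by 1.05 at day 9 and 0.69 at day 14 (a day 14 call lost with the percentile over all mouse probes) and miR-199a-3p, which was above background on the 6 treated arrays alone, while miR-143-3p, miR-145-5p and miR-214-3p were below background on all arrays. The mesenchyme list summed to 1.66 to 1.85 in treated and 0.897 to 0.965 in control day 9 arrays, and to 1.12 to 1.21 in treated and 0.760 to 0.816 in control day 14 arrays. Of 2 glial markers both were higher in treated cells at day 9 and miR-219-5p was higher and miR-338-3p lower at day 14 (the day 9 call of miR-338-3p held under 2 of the 4 scalings), with sums of 4.73 to 5.02 in treated and 1.73 to 2.11 in control cells at day 9 and 2.25 to 2.94 in treated and 1.56 to 1.62 in control cells at day 14. The glial list already summed to 3.03 to 3.58 at day 5, before any morphogen, above its sums in control cells and at day 14. Of 4 endoderm markers miR-375-3p was above background, on the 6 treated arrays. The part of these cell types in the members' changes was not tested.

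Over the 15 arrays, the members' profiles were compared by Pearson correlation of scaled log2 signal, as a description in which all arrays share the scaling and the course over days 5, 9 and 14. miR-99a-5p and miR-100-5p were most like each other (r = 0.999), and the nearest of the other miRNAs to miR-99a-5p were let-7f-5p (r = 0.986) and let-7a-5p (r = 0.982). Because miR-99a-5p and miR-100-5p differ at 1 of 22 bases, their probes may read each other's strand, which was not tested. miR-125b-5p was nearest to let-7f-5p (r = 0.991), let-7c-5p (r = 0.989) and let-7a-5p (r = 0.988), and miR-125a-5p to miR-100-5p (r = 0.985), miR-125b-5p (r = 0.982) and miR-99a-5p (r = 0.981). miR-99b-5p was nearest to miR-100-5p (r = 0.975), miR-99a-5p (r = 0.970) and miR-23b-3p (r = 0.970). Among the 5p strands r ran from 0.931 to 0.999. miR-125a-3p correlated with them at 0.473 to 0.637, and its nearest profiles were those of miR-149-3p (r = 0.968), miR-5131 (r = 0.959) and miR-5099 (r = 0.946). Guanine and cytosine make up 59.1% of miR-125a-3p, 81.8% of miR-149-3p and 87% of miR-5131, and miR-5099 had no RefSeq sequence. They make up 50% of miR-125a-5p and 63.6% of miR-99b-5p. Over the 227 tested miRNAs with a RefSeq sequence the median was 50% and the quartiles 40.9% and 61.9%. The part of base composition in these profiles was not tested.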

How the data were processed

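Total RNA was hybridised to 15 Agilent mouse miRNA arrays in 1 colour (Cy3). The deposited scanner tables, written by Feature Extraction 11.0.1.1, give background-subtracted intensity, per the file headers, and other columns hold 0 or 1 flags for spots above background, saturated (0 spots) and outlying, per the file headers. In the deposited value table, used as an alternative, treated day 14 replicates 1 and 2 hold largely the same values (86.05% of probes within 0.1%) and were counted once. The submitters' processing notes name limma 3.20.9, role not given. The members and lists were chosen with earlier results of these data known.

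Signals were averaged over non-outlying spots, divided by each array's 75th percentile over the 353 probes above background on every array, limited below at -4.27 and put on the log2 scale. The brightest probe stood for a miRNA, and 306 miRNAs above background on all arrays of a group were tested in limma 3.58.1 (R 4.3.3, package data.table at version 1.17.8) over all 5 groups, with 10 residual and 3.03 prior degrees of freedom and calls at an adjusted p below 0.05. The number of arrays limits the precision. The scripts were tested on simulated data. The normexp alternative used the median spot signal, since the tables used hold no mean signal. Marker sums add linear scaled signals, with markers below background at the floor. Named were the members, fixed lists and each member's 3 nearest profiles. Replicate numbers were not used to pair arrays in the main fit. Deviations of same-numbered arrays from their group means correlated at -0.544 to 0.525. Differently numbered arrays were not compared, so a source shared by same-numbered arrays was not tested. Figures used Python 3.11.15, matplotlib 3.10.9, pandas 2.3.3 and numpy 2.4.6.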

Additional observations from a re-analysis of the deposited data

Results flagged for a closer look

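For 2 members the treatment effect differed between the days, by limma's test of the interaction over all 306 miRNAs. The same test called 100 of all 306 miRNAs (32.7%), 16.7% positive and 16% negative. Such a difference was therefore common among the tested miRNAs, and the count of 2 members is not particular to these families. The effect on miR-99b-5p was 0.56 higher at day 14 (treated over control 0.52) than at day 9 (-0.05) on the log2 scale, with an adjusted p of 0.00945. The effect on miR-99a-5p was 0.35 higher at day 14 (0.33) than at day 9 (-0.02), with an adjusted p of 0.00564. Both interactions passed in all 15 fits that left out 1 array (0.50 to 0.60 for miR-99b-5p and 0.31 to 0.38 for miR-99a-5p). With slide as a term they were 0.53 (adjusted p = 0.0249) for miR-99b-5p and 0.35 (adjusted p = 0.0113) for miR-99a-5p, but the day 14 part of that fit rests on the 1 treated array on slide 2. Neither passed after the normexp background correction or with the scanner software's total gene signal. The interaction of miR-99b-5p also missed without the filter on dim miRNAs (0.56, adjusted p = 0.0541), and that of miR-99a-5p under quantile normalization (0.22, adjusted p = 0.0576). Dixon's test for outlying arrays was not run, since each group has 3 arrays.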

How the results depend on the processing

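The number of members called in the 4 comparisons between days stayed within 1.5 times its value under all alternatives run, though some sizes moved by over 1.5 times. The number of members called in treated against control did not stay within it. A count of 5 or 6 out of 6 can leave that range only by losing calls, whereas any change from the 1 called at day 9 leaves it. The counts hold both directions, so miR-125a-3p adds to them where it was called as a fall from day 5 to day 9 in treated cells. At day 9, where 1 member was called lower, 6 were called lower with the percentile over all mouse probes, 5 with median scaling and 2 with quantile normalization, 2 (1 higher, 1 lower) with the mean of the probes, and 0 with a floor 4 times higher, without the filter on dim miRNAs or with slide as a fixed block. Of all 306 miRNAs, 46 were called lower at day 9 in the main fit, 121 with the percentile over all mouse probes, 85 with median scaling and 88 with quantile normalization. With the mean of the probes 123 were higher and 43 lower, with the higher floor 62 and 33, and with the slide block 56 and 19. Leaving out each array gave 0 to 1 members at day 9. At day 14, where 4 members were called, 2 were called after normexp (1 higher, 1 lower), 2 with the scanner software's total gene signal (both lower) and 2 with the slide block (both higher). Calls among all 306 miRNAs at day 14 numbered 165 in the main fit, 58 after normexp, 123 with the total gene signal and 107 with the slide block. For the interaction, where 2 members were called, 0 were called after normexp and 1 without the filter. Of all 306 miRNAs, 100 were called in the main fit and 21 after normexp. With the percentile over all mouse probes the change at day 9 was -0.58 for miR-100-5p and -0.43 for miR-125a-5p, and at day 14 it was -0.10 for miR-100-5p and -0.043 for miR-99a-5p. The change of miR-100-5p was also negative with median scaling at day 9 (-0.28), with the mean of the probes at day 9 (-0.25) and day 14 (-0.15) and with the total gene signal at day 14 (-0.063). On the same array, miR-99b-5p minus miR-99a-5p at day 14 was -0.046 after normexp, and let-7e-5p minus miR-125a-5p in control cells at day 9 against day 5 was -0.30 with the higher floor, at which both strands lay at day 5. The cause was not tested for the others. With a replicate block the calls were the same except for the interaction of miR-100-5p, which passed (0.26, adjusted p = 0.0416), for 3 members called. Single changes of members were also counted over the 14 settings other than leaving out an array. Of these settings, the fits within a slide and the deposited value table hold fewer arrays. In them, 446 single changes kept their side of the threshold, 26 lost a call, 28 gained a call, 8 reversed and 20 that passed in neither changed sign. Dim signals limit miR-99b-5p and miR-125a-5p at day 5, and at most 3 arrays a group limit all values.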
